A study of Mus musculus with 40 samples.

Results

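The genes described here are the writers and erasers of DNA methylation. They are the methyltransferases Dnmt1, Dnmt3a and Dnmt3b, the cofactor Uhrf1, and the dioxygenases Tet1, Tet2 and Tet3. They were taken by symbol, as 7 of the 35976 rows of a gene count table from mouse bone marrow, and all 7 were present and passed the filter on low counts in each comparison. Sorted long-term haematopoietic stem cells (LT-HSC), myeloid progenitors labelled CMP/GMP (common or granulocyte-macrophage) and MEP (megakaryocyte-erythroid) were each measured in wild-type (WT) and Dnmt3a knockout (KO) mice, with 4 libraries a group and 3 for MEP WT. Cells positive for c-kit, a mixed fraction of progenitors, were measured in WT, Dnmt3a KO and Sting KO with 2 libraries each, and in Dnmt3a/Sting double knockout (DKO) with 3. The Dnmt3a KO joins a floxed Dnmt3a allele (Dnmt3a f/f) with Mx1-Cre, a recombinase driven by an interferon-inducible promoter that acts in many cell types besides blood. Neither the way Cre was induced, nor the Cre status of WT and Sting KO mice, nor the part of Dnmt3a that is removed, nor the Sting allele, nor any age is given in the sources used here. Short-term stem cells were not analysed here.

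In mammals Dnmt1 copies methylation onto the new DNA strand behind the replication fork, and Uhrf1 brings it there by reading hemimethylated CpG sites. Dnmt3a and Dnmt3b place methyl groups on unmethylated DNA, and the Tet enzymes oxidise 5-methylcytosine, which leads to its loss. DNMT3A and TET2 are among the genes most often mutated in human clonal haematopoiesis, and loss of either in mouse stem cells favours self-renewal.

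Levels are CPM after TMM scaling over all 32 libraries (normalised CPM, reads relative to the total of the library), and a level per kb is divided by the exon length of the gene. Called means an adjusted p below 0.05 by the quasi-likelihood test of edgeR, with the Benjamini-Hochberg method applied across every gene tested. SE is the standard error of a log2 fold change. The labels name no animals, so p-values measure only the spread between libraries, which may be technical. Each LT-HSC library held 16.9 to 45.8 M reads in genes and each CMP/GMP library 33.2 to 47.7 M. The range was 3.44 to 36.0 M for MEP, while c-kit+ libraries held 27.4 to 40.0 M. Summed markers of LT-HSC and MEP followed the labels, while those of CMP/GMP did so among sorted libraries only. The 8 CMP/GMP markers summed to at least 6245 CPM in CMP/GMP libraries and at most 3275 CPM in other sorted ones. Their sums were 12959 to 20755 CPM in c-kit+ libraries. The 8 LT-HSC markers summed to at least 1026 CPM in each LT-HSC library and at most 254.6 CPM elsewhere, and the 8 MEP markers to at least 4047 CPM in each MEP library and at most 1764 CPM elsewhere. Several libraries stood apart. LT-HSC WT 1 correlated with the other libraries of its group at 0.634 to 0.684 and held 1299 CPM of Mpo and 565 CPM of Elane, granulocytic genes that were at most 3.49 and 0.418 CPM in the other LT-HSC WT libraries. LT-HSC Dnmt3a KO 2 correlated with its group at 0.664 to 0.670. MEP Dnmt3a KO 2 was the library with 3.44 M reads and held 1967 CPM of Mpo. MEP Dnmt3a KO 3 and 4 correlated with each other at 0.994 and with MEP Dnmt3a KO 1 at 0.716, although their counts differed by more than sampling noise. In c-kit+ cells both Dnmt3a KO libraries and DKO 1 expressed Xist, and the other 6 did not. In sorted cells the libraries numbered 3 and 4 expressed it and those numbered 1 and 2 did not, except that CMP/GMP WT 4 did not. The c-kit+ libraries also detected 18713 to 19514 genes each, against 10706 to 15068 in the sorted libraries.

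Dnmt1 lies on chromosome 9 (20907206 to 20959888), Uhrf1 on 17 (56303337 to 56323486), Dnmt3a on 12 (3801559 to 3914443), Dnmt3b on 2 (153649411 to 153687730), Tet1 on 10 (62804570 to 62887469), Tet2 on 3 (133463677 to 133545136) and Tet3 on 6 (83362373 to 83457208) of GRCm38.p6. Dnmt1 and Uhrf1 are expressed in dividing cells, and the E2F factors that drive genes of S phase bind sites close to TTTCGCGC or TTTGGCGC. The 300-base windows from 250 bases before to 50 bases after each RefSeq start were therefore searched on both strands for these 2 motifs, TTTCCCGC and TTTGCCGC. At least 1 motif was present in 744 of 32851 windows, or 2.26%. Among the 12 windows of the members it was present in 1 of the 3 windows of Dnmt1 and 1 of the 2 of Uhrf1, which are printed here from RefSeq (GRCm38.p6) because these are the members that were lower in LT-HSC together with S phase genes. Capitals mark the motifs, which on the strand shown read TTTCGCGC, TTTGGCGC or the reverse complement GCGCGAAA.

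Dnmt1, chr9:20952574-20952873, minus strand: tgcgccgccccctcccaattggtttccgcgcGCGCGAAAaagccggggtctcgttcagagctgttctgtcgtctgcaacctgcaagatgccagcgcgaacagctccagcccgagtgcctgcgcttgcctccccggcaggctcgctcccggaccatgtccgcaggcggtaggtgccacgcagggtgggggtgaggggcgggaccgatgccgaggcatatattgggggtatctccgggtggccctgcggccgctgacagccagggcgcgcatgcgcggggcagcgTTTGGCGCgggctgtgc

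Uhrf1, chr17:56304063-56304362, plus strand: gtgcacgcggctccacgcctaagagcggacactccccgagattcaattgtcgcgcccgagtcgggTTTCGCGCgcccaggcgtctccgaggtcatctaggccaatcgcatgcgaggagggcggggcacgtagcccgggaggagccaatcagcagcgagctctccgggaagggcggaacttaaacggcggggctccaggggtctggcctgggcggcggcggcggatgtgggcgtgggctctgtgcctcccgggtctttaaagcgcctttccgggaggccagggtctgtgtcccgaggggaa

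Each of these windows held 33 CpG sites, against a median of 7 over all windows. Of the 11 genes of an S phase and replication list that had a window, 6 held a motif, against 704 of 27025 genes (2.6%). E2F factors drive genes of S phase, so this count cannot speak for Dnmt1 and Uhrf1. The match is a description of the letters, and binding was not measured.

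The maintenance pair, Dnmt1 and Uhrf1, was lowest in stem cells. Among WT populations both were lower in LT-HSC than in CMP/GMP, Dnmt1 by 1.18 and Uhrf1 by 1.56 on the log2 scale. Dnmt1 was at 169, 134, 117 and 164 CPM in LT-HSC WT 1 to 4. It was at 387, 276, 288 and 356 CPM in CMP/GMP WT and at 275, 125 and 211 CPM in MEP WT. The LT-HSC and CMP/GMP ranges did not overlap, while MEP spanned the gap between them. Uhrf1 was at 149, 161, 70.1 and 115 CPM in LT-HSC WT, at 371, 323, 262 and 474 CPM in CMP/GMP WT and at 247, 176 and 224 CPM in MEP WT. Every LT-HSC library lay below every CMP/GMP and MEP library for Uhrf1. Against CMP/GMP the log2 fold change in LT-HSC was -1.18 (SE 0.25, adjusted p = 0.0120 in edgeR) for Dnmt1 and -1.56 (SE 0.28, adjusted p = 0.00518) for Uhrf1. These were 2 of 7 members called in that comparison, both lower, where 8.74% of 14663 genes were called, 4.23% higher and 4.51% lower. Against MEP neither passed: Dnmt1 differed by -0.51 (SE 0.26, adjusted p = 0.215) and Uhrf1 by -0.84 (SE 0.29, adjusted p = 0.0726). Without LT-HSC WT 1 the difference of Uhrf1 from MEP was called (-0.94, adjusted p = 0.0434). The call of Dnmt1 was lost without CMP/GMP WT 4 (adjusted p = 0.0536), and both calls held without LT-HSC WT 1.

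S phase genes moved with them. Of the 14 S phase and replication genes, 9 were called lower in LT-HSC than in CMP/GMP and 8 lower than in MEP, with none higher. The median log2 fold change of the list was -1.51 and -1.37, against 0.09 and 0.17 over all genes tested. Rrm2, a subunit of ribonucleotide reductase, was lower by -2.35 (SE 0.31, adjusted p = 0.00103), and Mcm6, part of the replicative helicase, by -1.92 (SE 0.21, adjusted p = 0.000504) against CMP/GMP. The summed level of the list was 1347 to 2329 CPM in LT-HSC WT, 4210 to 5299 CPM in CMP/GMP WT and 3432 to 4642 CPM in MEP WT. Per 100 CPM of this sum, Dnmt1 was at 8.75 ± 2.23 CPM (SD, n = 4) in LT-HSC WT, 7.02 ± 1.48 (SD, n = 4) in CMP/GMP WT and 5.36 ± 2.67 (SD, n = 3) in MEP WT. On that scale the order of the means was turned round for Dnmt1, and the ranges of LT-HSC and CMP/GMP overlapped. Uhrf1 per 100 CPM was at 7.04 ± 1.35 (SD, n = 4), 7.60 ± 1.57 (SD, n = 4) and 5.56 ± 1.71 (SD, n = 3), again with overlapping ranges. In bulk libraries a smaller share of cycling cells and less RNA per cell cannot be told apart.

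**Figure D1:**
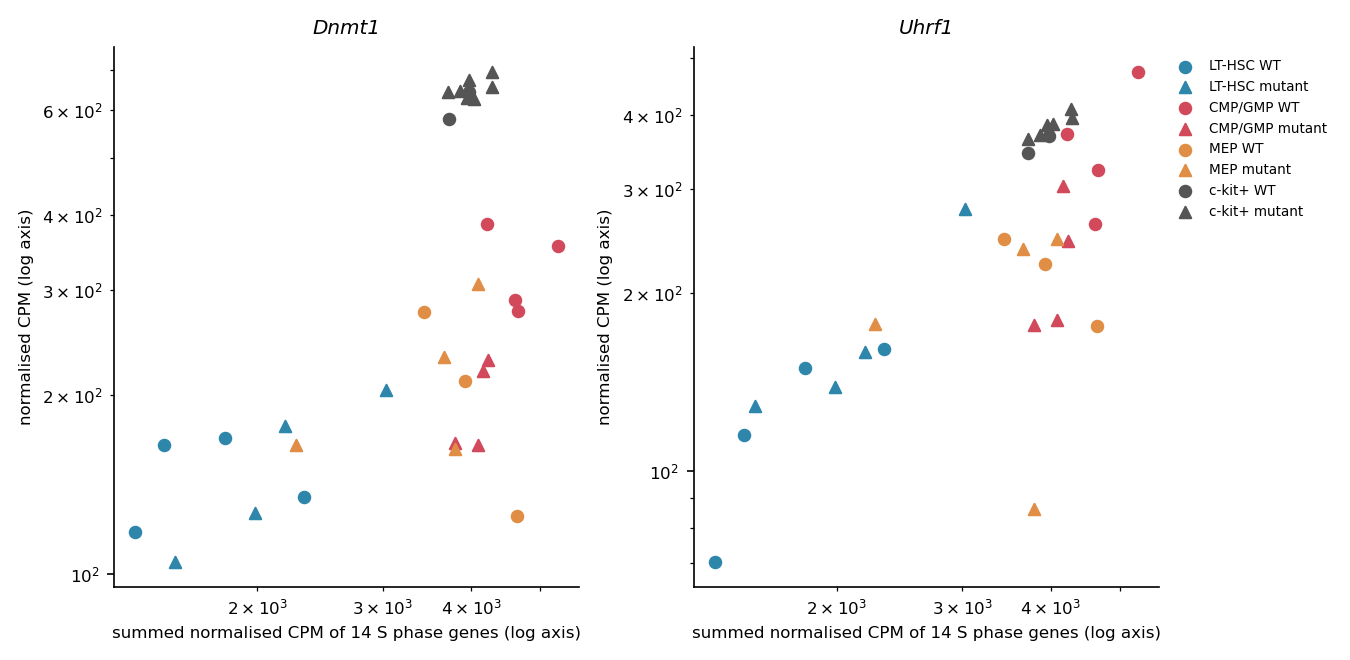
Normalised CPM of Dnmt1 (left) and Uhrf1 (right) against the summed normalised CPM of 14 S phase genes, both on log axes, with 1 point per library. Circles are WT and triangles mutant libraries, coloured by population. LT-HSC WT libraries lie at the low end of both axes, from 1347 to 2329 CPM on the horizontal one, and the c-kit+ libraries lie above the sorted ones for Dnmt1.

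Dnmt3a and Dnmt3b, the de novo methyltransferases, had their highest mean level among sorted WT cells in LT-HSC and their lowest in MEP. Dnmt3a was at 216, 69.7, 98.4 and 90.2 CPM in LT-HSC WT, at 57.1, 67.2, 50.3 and 82.4 CPM in CMP/GMP WT and at 50.2, 33.5 and 29.1 CPM in MEP WT. LT-HSC lay above MEP in every library and overlapped with CMP/GMP. Dnmt3b was at 144, 79.5, 50.4 and 59.1 CPM in LT-HSC WT, at 50.6, 40.2, 28.7 and 36.7 CPM in CMP/GMP WT and at 20.6, 42.3 and 14.9 CPM in MEP WT. Against MEP, LT-HSC was higher by 1.62 (SE 0.40, adjusted p = 0.0178) for Dnmt3a and by 1.64 (SE 0.46, adjusted p = 0.0315) for Dnmt3b. Together with Tet1 these were 3 of 7 members called, all higher, where 13.2% of all genes were called, 7.17% higher and 6.02% lower. Against CMP/GMP the log2 fold changes were 0.86 (SE 0.35, adjusted p = 0.141) and 1.06 (SE 0.41, adjusted p = 0.114), and neither passed. LT-HSC WT 1, the library with granulocytic RNA, held the highest level of both genes. Without it the change against CMP/GMP was 0.40 for Dnmt3a and 0.67 for Dnmt3b, and against MEP both calls held at 1.16 (adjusted p = 0.0153) and 1.24 (adjusted p = 0.0445). Both were lost without MEP WT 4, with adjusted p of 0.0856 for Dnmt3a and 0.130 for Dnmt3b. Leaving out MEP WT 3 ended the call of Dnmt3a (adjusted p = 0.0791) and leaving out MEP WT 1 that of Dnmt3b (adjusted p = 0.112).

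Of the 3 dioxygenases, Tet1 alone was called between populations. It was at 104, 49.98, 61.7 and 63.3 CPM in LT-HSC WT, at 30.7, 24.3, 31.7 and 28.5 CPM in CMP/GMP WT and at 29.9, 11.01 and 11.5 CPM in MEP WT. Every LT-HSC library lay above every library of the other WT populations, c-kit+ included, where Tet1 was at 24.4 and 21.9 CPM. The log2 fold change of LT-HSC was 1.96 (SE 0.43, adjusted p = 0.0111) against MEP, and 1.25 (SE 0.38, adjusted p = 0.0579) against CMP/GMP, which did not pass. Of 18 alternatives 5 did call Tet1 against CMP/GMP, namely DESeq2, limma-voom, RLE scaling, a term for sex and leaving out MEP WT 1. Without LT-HSC WT 1 these were 1.71 (adjusted p = 0.0114) and 0.999 (adjusted p = 0.0832). The call against MEP was lost without MEP WT 3 (adjusted p = 0.0580) or MEP WT 4 (adjusted p = 0.0594). Tet2 was at 44.7, 13.1, 15.6 and 23.0 CPM in LT-HSC WT, at 27.9, 13.8, 19.4 and 20.0 CPM in CMP/GMP WT and at 20.4, 11.9 and 8.69 CPM in MEP WT, and the ranges overlapped. Tet3 was at 56.6 to 113 CPM in LT-HSC WT, 58.7 to 92.3 CPM in CMP/GMP WT and 45.8 to 128 CPM in MEP WT, also overlapping. Their intervals at 95% for LT-HSC against CMP/GMP ran from -0.85 to 1.30 for Tet2 and from -0.66 to 0.79 for Tet3. Between WT CMP/GMP and WT MEP no member was called, where 3.47% of genes were (2.28% higher and 1.19% lower), although Dnmt1 and Uhrf1 had an unadjusted p under 0.05 in edgeR. DESeq2 called no member there, in a fit that called 1436 of 13717 genes. Limma-voom called 3 members, Dnmt1, Dnmt3a and Uhrf1, in a fit that called 3240 of 14663 genes.

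**Figure D2:**
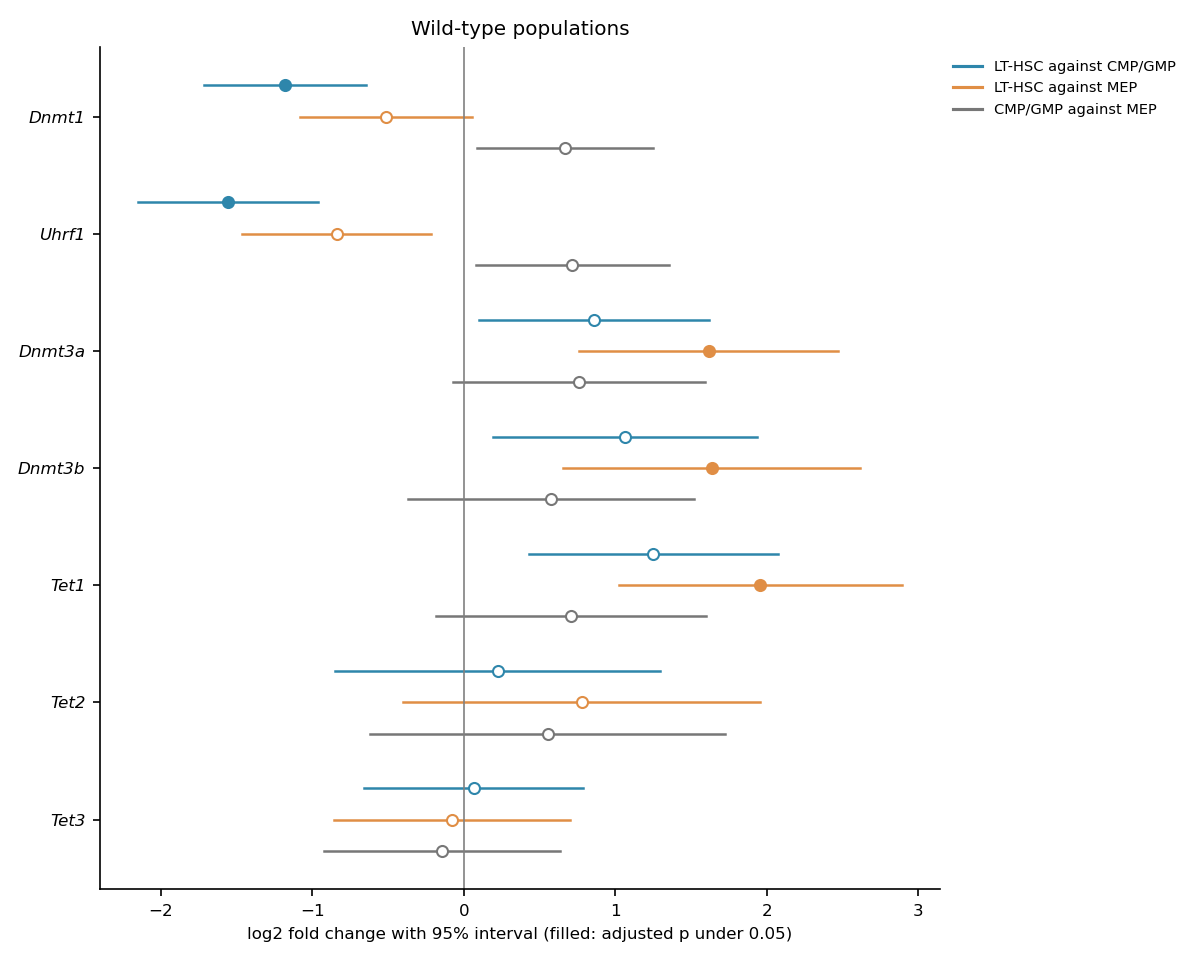
Log2 fold changes of the 7 genes between WT populations, with 95% intervals, in LT-HSC against CMP/GMP, LT-HSC against MEP and CMP/GMP against MEP. Filled points passed an adjusted p of 0.05. Dnmt1 and Uhrf1 lie left of 0 in both LT-HSC comparisons, and Dnmt3a, Dnmt3b and Tet1 lie right of 0.

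Scaling moved the centre of these comparisons. With RLE size factors in place of TMM the median over all genes went from 0.09 to 0.19 against CMP/GMP and from 0.17 to 0.25 against MEP. The signs given for the called members were the same under both.

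The mix of transcripts differed with the population. Per kb of exon, Dnmt1 made up 47.7% ± 8.75 (SD, n = 4) of the summed Dnmt1, Dnmt3a and Dnmt3b level in LT-HSC WT, and 79.3% ± 2.50 (SD, n = 4) in CMP/GMP WT. Dnmt3b, and not Dnmt3a, was the larger de novo part per kb, at 36.4% ± 7.15 (SD, n = 4) against 15.9% ± 4.28 (SD, n = 4) in LT-HSC WT. The length sets this order, since the exons used sum to 16.642 kb for Dnmt3a and 5.106 kb for Dnmt3b, and in CPM the mean was 119 for Dnmt3a and 83.1 for Dnmt3b. Among the 3 Tet genes, Tet1 made up 42.5% ± 7.29 (SD, n = 4) in LT-HSC WT, 25.4% ± 3.73 (SD, n = 4) in CMP/GMP WT, 16.4% ± 1.93 (SD, n = 3) in MEP WT and 11.4% ± 0.60 (SD, n = 2) in c-kit+ WT. The ranges of Tet1 shares in LT-HSC, CMP/GMP and MEP WT did not overlap, and the differences in shares were not tested. In CMP/GMP the Dnmt3b share was 13.7% ± 2.14 (SD, n = 4) in WT and 23.9% ± 1.79 (SD, n = 4) in Dnmt3a KO, without overlap, while the Dnmt3b level was 39.0 and 44.8 CPM on average. In MEP the Tet1 share was 14.3% to 17.95% in WT and 21.2% to 30.9% in Dnmt3a KO. The share in KO 1 was 25.5%, although its Tet1 level, 10.2 CPM, lay below every WT library. Tet3 in KO 1 was at 24.3 CPM, also below every WT library.

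**Figure D3:**
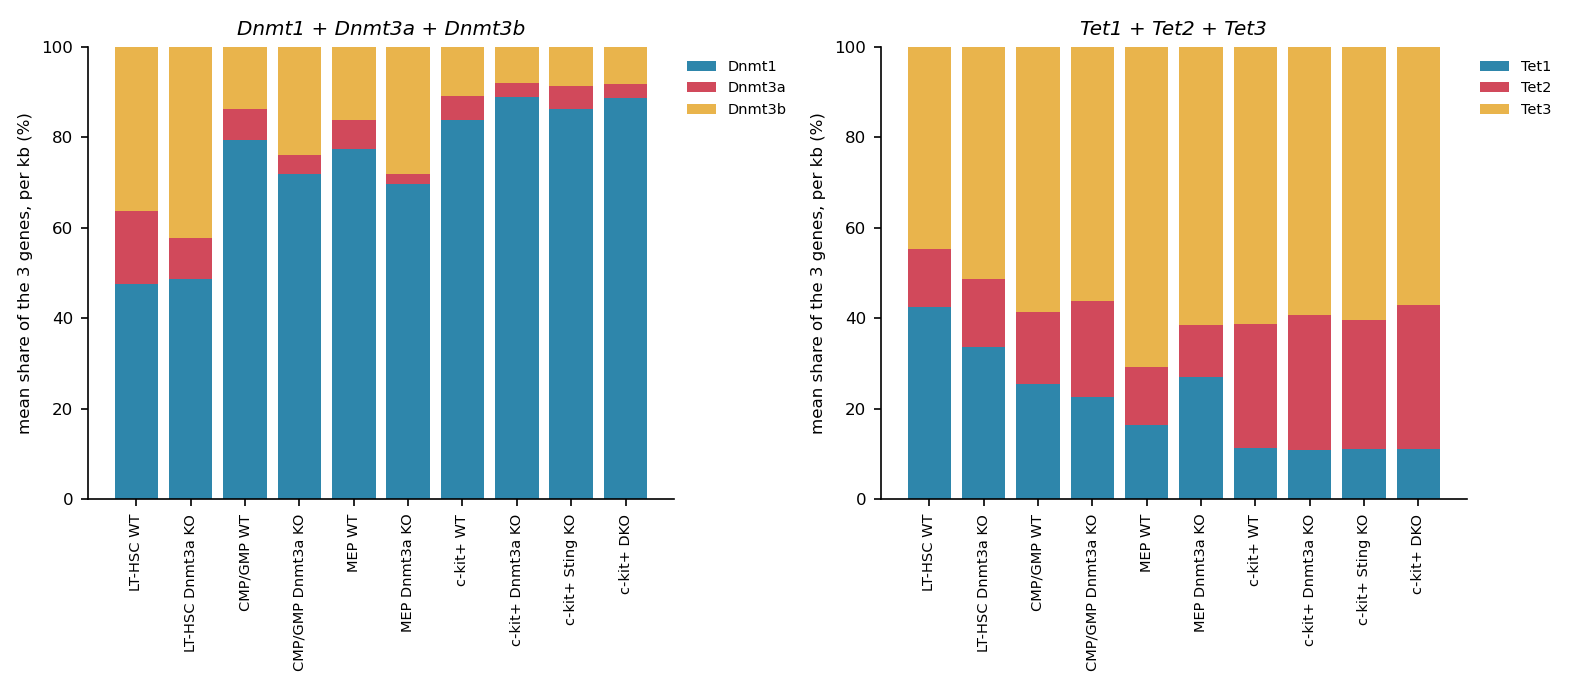
Mean share of each gene in the per-kb level of its family, in percent, by group, for Dnmt1, Dnmt3a and Dnmt3b (left) and Tet1, Tet2 and Tet3 (right). The Dnmt1 share is lowest in LT-HSC (47.7% in WT) and highest in c-kit+ cells, and Tet3 is the largest Tet share in all 10 groups.

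Other genes of the pathway were read for the WT populations, where, as given above, 8.74% of all genes were called between LT-HSC and CMP/GMP and 13.2% between LT-HSC and MEP. Among 10 genes of methyl donor and folate metabolism 4 were lower in LT-HSC than in CMP/GMP and none higher, such as Shmt1, a serine hydroxymethyltransferase, at -1.501 (SE 0.25, adjusted p = 0.00411), and Tyms, the thymidylate synthase, at -1.29 (SE 0.27, adjusted p = 0.0126). Of 11 tested genes for the removal of oxidised 5-methylcytosine and base excision repair 2 were lower, the scaffold Xrcc1 at -1.32 (adjusted p = 0.0134) and the nuclease Apex1 at -0.79 (adjusted p = 0.0202). Among 5 tested cofactors and partners of the Tet enzymes 2 were higher and 2 lower. Cxxc5, whose CXXC domain binds CpG DNA, was higher by 2.02 (SE 0.39, adjusted p = 0.00794) and Ogt, the O-GlcNAc transferase that binds Tet proteins, by 0.96 (SE 0.21, adjusted p = 0.0133). The isocitrate dehydrogenases Idh1 and Idh2, which make the 2-oxoglutarate that Tet enzymes use, were at -2.35 (adjusted p = 0.0370) and -1.47 (adjusted p = 0.00122). Cdca7, a partner of the remodeller Hells, was the 1 of 9 other methylation factors called, at -1.16 (SE 0.23, adjusted p = 0.00867), and none of the 8 methyl-CpG binding proteins was called. Against MEP, 2 of the methyl donor genes, 3 repair genes, none of the methyl-CpG binding proteins, Cxxc5 at 2.92 and the imprinting factor Zfp57 at 7.12 (SE 2.17, mean level 6.10 CPM) passed. Dnmt3l, the cofactor of Dnmt3a and Dnmt3b in germ cells, had 0 reads in all 11 sorted WT libraries. It was not absent elsewhere, with 40 and 103 reads in c-kit+ WT (1.27 and 2.65 CPM). CMP/GMP Dnmt3a KO 3 and 4 held 48 and 8 reads.

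The knocked-out gene was read first in the mutants. In LT-HSC, Dnmt3a was at 38.7, 67.1, 104 and 44.7 CPM in the KO, or 32.6%, 56.6%, 87.4% and 37.7% of the WT mean, and the library labelled KO 3 lay above 3 of the 4 WT libraries. In CMP/GMP it was at 16.8, 16.6, 32.4 and 33.6 CPM, or 25.8% to 52.3% of the WT mean, all below every WT library. In MEP it was at 11.4, 43.7, 1.91 and 1.44 CPM, the last of these from 40 and 30 reads, and the library labelled KO 2 lay above 2 of the 3 WT libraries. In c-kit+ cells it was at 49.5 and 47.9 CPM in the KO, 57.2% and 55.4% of the WT mean, and at 43.0, 51.6 and 51.6 CPM in DKO, 47.1% to 56.5% of the Sting KO mean. RNA therefore remained in each KO group, and reads of the deleted and the remaining part of the gene cannot be told apart in a count per gene. Dnmt3aos and Gm31623, which overlap Dnmt3a, reached 1.51 and 17.1 CPM, and no source used here gives the strand setting of the counting.

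In CMP/GMP, Dnmt1 and Uhrf1 were lower in the KO in most libraries but did not pass the threshold. Dnmt1 was at 165, 229, 219 and 166 CPM in the KO, below all 4 WT libraries. Its log2 fold change was -0.74 (SE 0.18, unadjusted p = 0.00143, adjusted p = 0.305 in edgeR). Uhrf1 was at 180, 245, 304 and 176 CPM in the KO, with 1 library inside the WT range, and a log2 fold change of -0.65 (SE 0.22, adjusted p = 0.442). Dnmt3a differed by -1.36 (SE 0.30, unadjusted p = 0.000698, adjusted p = 0.298). No member was called in edgeR, where 0% of 13205 genes were, and 3 members and 1196 genes had an unadjusted p under 0.05. DESeq2 called Dnmt3a (adjusted p = 0.00385) and Dnmt1 (adjusted p = 0.0137) among 158 genes, and limma-voom with sample weights called Dnmt3a (adjusted p = 0.0153) among 475. Over all alternatives the adjusted p of Dnmt1 ran from 0.0137 to 0.900. The 8 CMP/GMP markers summed to a median of 8609 CPM in WT (6245 to 32159) and 19819 CPM in the KO (8984 to 22422), and Elane was at 279, 219, 5460 and 187 CPM in WT 1 to 4 and 2175, 275, 2403 and 3302 CPM in KO 1 to 4. The part of these markers in the result was not tested. The S phase list had a median of -0.18 in this comparison and no called gene, and Dnmt1 per 100 CPM of its sum was at 4.78 ± 0.67 (SD, n = 4) in the KO. The 4 other members had log2 fold changes between -0.45 and 0.21.

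In LT-HSC no member was called by edgeR, DESeq2 or limma-voom, and none had an unadjusted p under 0.05 in edgeR. There 0% of 12800 genes were called, with 151 at an unadjusted p under 0.05. Dnmt3a differed by -0.89 (SE 0.45, unadjusted p = 0.0741), and by -0.46 (SE 0.40) without LT-HSC WT 1 and KO 2. Uhrf1 was at 159, 129, 139 and 278 CPM in the KO, with a log2 fold change of 0.51 (95% interval -0.27 to 1.29), and Dnmt1 at 177, 105, 127 and 204 CPM, with 0.07 (-0.58 to 0.72). Dnmt3b was at 46.0, 192, 65.7 and 104 CPM and Tet1 at 18.9, 53.3, 88.6 and 46.6 CPM. The ranges of KO and WT overlapped for each of these 4 genes.

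In MEP, Tet1, Dnmt3b and Tet3 were low in KO 1 and high in the other KO libraries, while for Tet2 and Dnmt3a the highest library was KO 2. Tet1 was at 10.2 CPM in KO 1 and at 51.0, 66.2 and 72.6 CPM in KO 2 to 4, above the highest WT library at 29.9 CPM. Dnmt3b was at 8.99 CPM in KO 1 and at 135, 63.9 and 72.4 CPM in KO 2 to 4, where WT reached 42.3 CPM. Tet3 was at 24.3 CPM in KO 1 and at 154, 155 and 166 CPM in KO 2 to 4. In all 3 genes KO 1 thus lay below every WT library and KO 2 to 4 above every one. The share of all genes with this split was not counted. Over genes with at least 5 CPM on average, KO 1 correlated with its group at 0.659 to 0.716, and KO 3 with KO 4 at 0.994. The log2 fold change was 1.501 (SE 0.74, adjusted p = 0.425) for Tet1, 1.43 (SE 0.80, adjusted p = 0.462) for Dnmt3b and -1.38 (SE 1.07, adjusted p = 0.575) for Dnmt3a. The Dnmt3a value was -2.96 without KO 2 and -0.47 without both KO 3 and 4, and over all alternatives it ran from -4.30 to -0.47. No member was called in edgeR, where 0% of 12323 genes were called and 1607 had an unadjusted p under 0.05, and none in DESeq2, which called 561 genes. Without KO 1, Tet1 (1.84, SE 0.51, adjusted p = 0.0358) and Dnmt3b (1.80, SE 0.52, adjusted p = 0.0403) were called. That edgeR fit called 2882 of 11880 genes. Limma-voom called Dnmt3a, Dnmt3b, Tet1 and Tet3, in a fit that called 7800 of 12323 genes. The 8 MEP markers summed to 4047 to 7668 CPM in the KO, below every WT library at 8863 to 11437 CPM. Mpo was at 624, 1967, 39.5 and 46.6 CPM in KO 1 to 4, and Elane at 347, 312, 0.095 and 0.77 CPM. In MEP WT 1, 3 and 4 Mpo was at 271, 246 and 47.5 CPM, and Elane at 112, 0.058 and 0.27 CPM. The part of these differences in the result was not tested.

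An F-test over the 6 sorted groups asked whether the effect of Dnmt3a loss differs between populations. No member was called, where 0.0186% of 16136 genes were. Tet1 had the lowest value (unadjusted p = 0.0272, adjusted p = 0.378 in edgeR) and was the 1 member called without MEP Dnmt3a KO 1. Without that library 844 of 16064 genes were called in the same test. DESeq2 called no member and limma-voom called 4 members, in a fit with 4106 genes called.

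In c-kit+ cells the libraries of a group lay close together. Dnmt3a was the 1 of 7 members called between Dnmt3a KO and WT, at -0.81 (SE 0.13, adjusted p = 0.0320), where 0.568% of 16026 genes were called and 0.262% were lower and 0.306% higher. WT was at 90.6 and 82.3 CPM, above both KO libraries. Dnmt3b had 55.1 and 53.8 CPM in WT, and the KO libraries had 43.3 and 39.3 CPM, a log2 fold change of -0.38 (SE 0.12, unadjusted p = 0.0105, adjusted p = 0.183). Tet2 had 58.9 and 62.7 CPM in WT, and the KO libraries had 68.1 and 71.3 CPM, or 0.21 (SE 0.09, adjusted p = 0.302). Dnmt1 was at 581 and 645 CPM in WT, and the KO libraries were at 675 and 643 CPM, and Uhrf1 at 345 and 369 against 373 and 364 CPM. The call of Dnmt3a was lost when either library of either group was left out. Both KO libraries were Xist-positive and both WT libraries were not, so sex and genotype cannot be told apart within this pair of groups. With a term for sex, estimated through DKO 1, the change was -0.55 (SE 0.18, adjusted p = 0.676).

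With Sting absent the same order held for Dnmt3a. The Sting KO libraries had 81.3 and 102 CPM, above all 3 DKO libraries, and the log2 fold change of DKO was -0.89 (SE 0.12, adjusted p = 0.0892). No gene was called in that comparison in edgeR (0% of 16026), with 1 member and 1854 genes at an unadjusted p under 0.05. DESeq2 called Dnmt3a among 126 genes, limma-voom called no gene, and edgeR called Dnmt3a without Sting KO 1. The change by Dnmt3a loss did not pass a test of difference with and without Sting, at -0.08 (95% interval -0.47 to 0.32), and no member was called in this interaction, where 0.150% of genes were (0.0749% in each direction). Sex was not balanced in this test either, since among DKO libraries only DKO 1 was Xist-positive. With a term for sex 5 of 16026 genes were called in the interaction, against 24 without it. Sting loss itself left no member called, where 0.774% of genes were (0.212% higher and 0.562% lower), by edgeR, DESeq2 or limma-voom. Uhrf1 was at 410 and 396 CPM in Sting KO, above both WT libraries, with a log2 fold change of 0.16 (SE 0.07, adjusted p = 0.402). Between DKO and Dnmt3a KO, where 0.156% of genes were called, all 7 log2 fold changes lay between -0.07 and 0.08 and none was called. The fit with a term for sex called 1 of 16026 genes there, against 25 without it. Summed macrophage markers were 1346 to 1412 CPM in c-kit+ WT and 327 to 547 CPM in the mutants, and summed eosinophil markers 3860 to 4285 CPM and 1257 to 2943 CPM, and their part in the differences from WT was not tested.

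**Figure D4:**
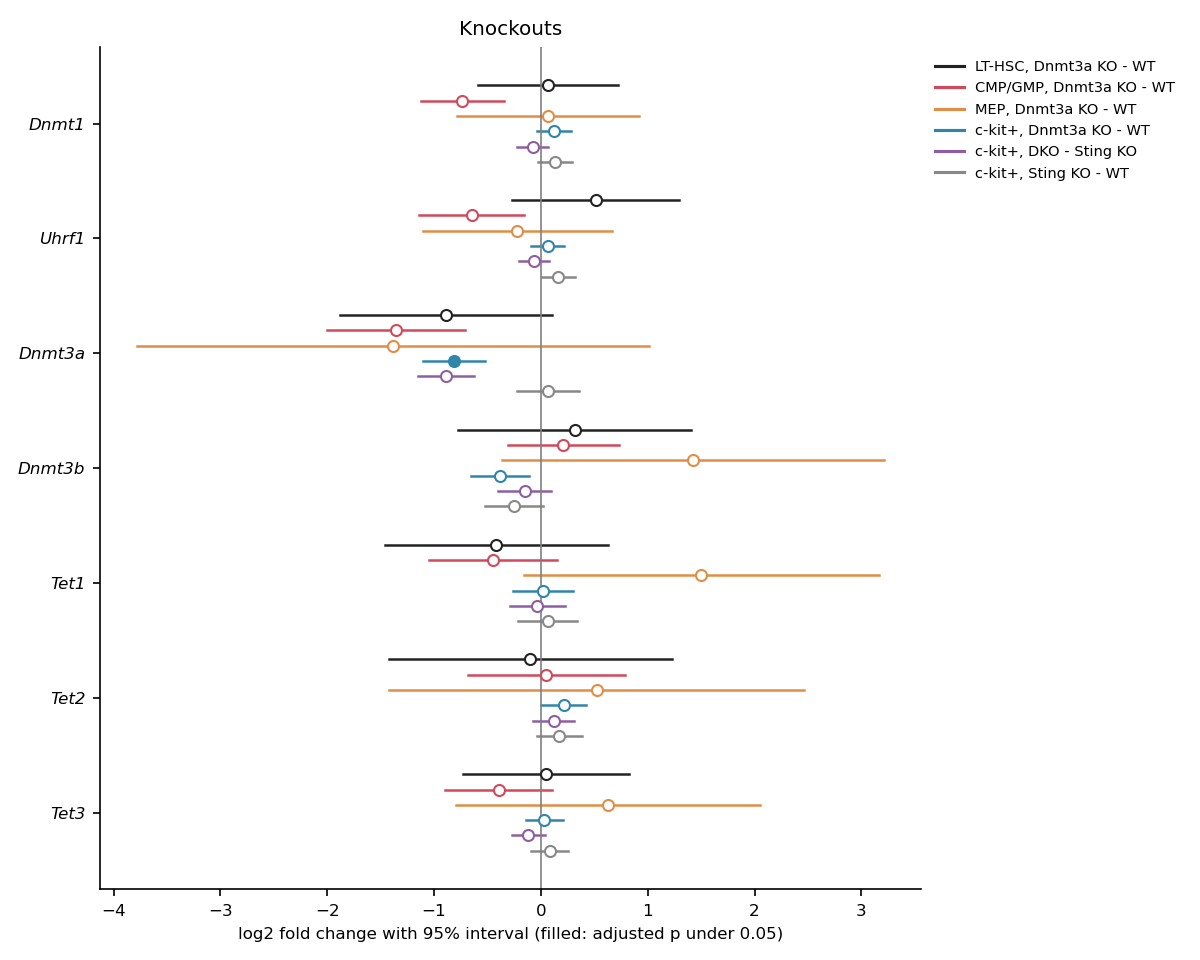
Log2 fold changes of the 7 genes in 6 knockout comparisons, with 95% intervals. The filled point, the -0.81 of Dnmt3a itself in c-kit+ cells without Dnmt3a, is the 1 called value. Intervals are widest in MEP and narrowest in c-kit+ cells.

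In the order of the 10 group means, a c-kit+ group came first for Dnmt1, Uhrf1, Tet2 and Tet3 and an LT-HSC group for Dnmt3a, Dnmt3b and Tet1. For Uhrf1, CMP/GMP WT (357.8 CPM) ranked above c-kit+ WT (356.8 CPM). The LT-HSC WT mean of Dnmt3a, 119 CPM, included LT-HSC WT 1 at 216 CPM. LT-HSC WT 2 to 4 were at 69.7, 98.4 and 90.2 CPM, against 90.6 and 82.3 CPM in c-kit+ WT and 81.3 and 102 CPM in c-kit+ Sting KO. Dnmt1 was at 581 CPM or more in all 9 c-kit+ libraries and at 387 CPM or less in all sorted ones, and Tet2 at 58.9 CPM or more and 51.3 CPM or less. Levels between c-kit+ and sorted libraries were not tested, and the number of genes detected, given above, differed in the same way. Most neighbours in each order overlapped in range. Over these group means Dnmt1 and Uhrf1 had a Pearson r of 0.92, Dnmt1 and Tet2 of 0.90, Dnmt1 and Tet3 of 0.85, Tet2 and Tet3 of 0.84, Dnmt3b and Tet1 of 0.83, and Dnmt3a no r above 0.48 with another member. The points share libraries and the gap between c-kit+ and sorted cells. Among 10075 genes with at least 5 CPM on average, the pattern most like Dnmt1 was that of Zfp518b (r = 0.99), and for Uhrf1 it was Cpsf1 (0.99). For Dnmt3a it was Dennd3 (0.96), for Dnmt3b Micu3 (0.95), for Tet1 Zrsr2 (0.96), for Tet2 Magi3 (0.997) and for Tet3 Gigyf2 (0.99). By Spearman rank correlation (rho) none of these genes came among the 3 most like its member. Their rho ran from 0.79 for Micu3 and Zrsr2 to 0.98 for Magi3.

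**Figure D5:**
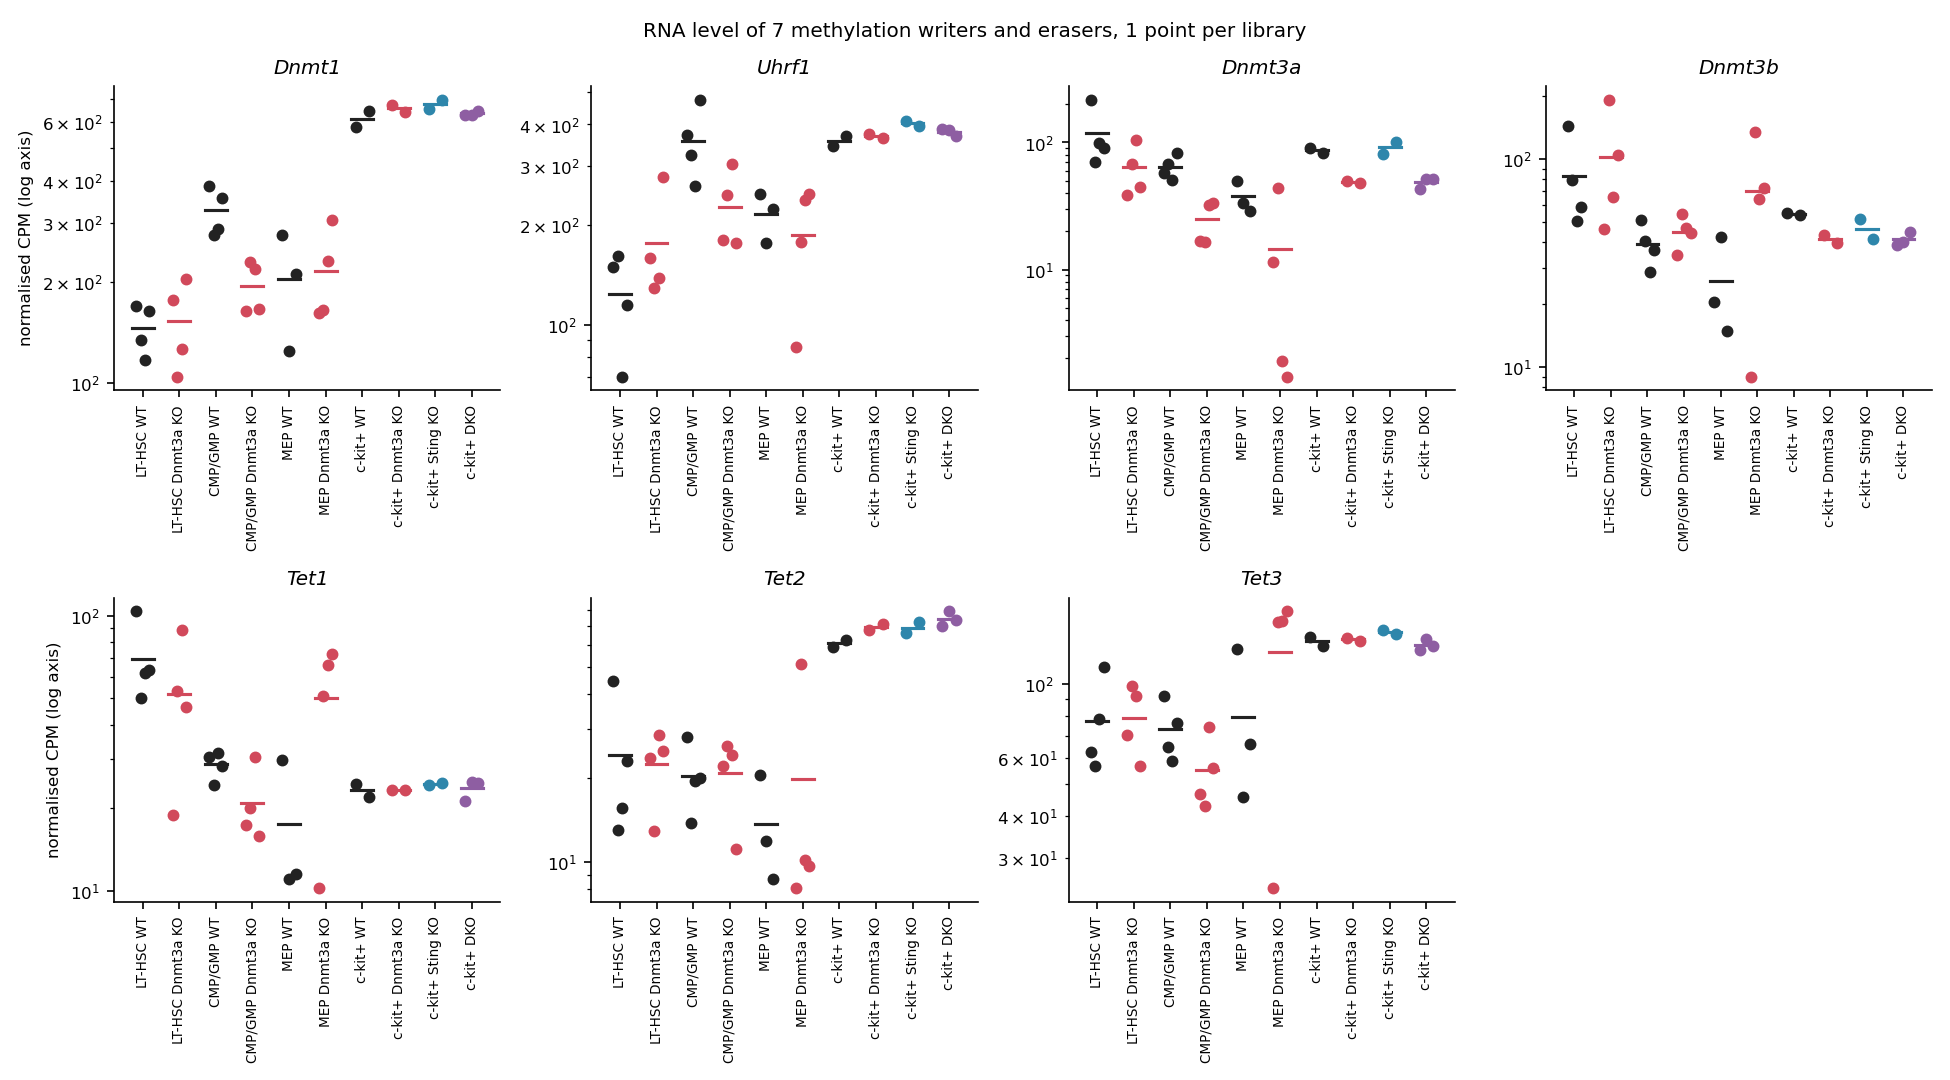
Normalised CPM of each gene in every library on a log axis, by group, with the group mean as a bar. Black points are WT, red Dnmt3a KO, blue Sting KO and purple DKO. Dnmt3a is lowest in MEP Dnmt3a KO 3 and 4 (1.91 and 1.44 CPM), and Tet1, Dnmt3b and Tet3 in MEP Dnmt3a KO split into 1 low and 3 high libraries.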

How the data were processed

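RNA was measured with a modified SMART-Seq2 protocol on polyA RNA of sorted or c-kit+ mouse bone marrow cells, per the labels' protocols. The authors deposited raw read counts per gene symbol. Per the submitters' processing notes, the tools were Trim Galore 0.6.7, HISAT2, featureCounts 2.0.1 and DESeq2 1.34.0, and the genome build was mm10. No source used here gives the annotation or the strand setting. Of 40 gene columns 32 were matched to libraries by name, and the other 8 were not used because their names are repeated. The table of transposable elements was not used here.

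Counts were tested in R 4.3.3 with edgeR 4.0.16 (TMM, filterByExpr with a minimum count of 10 and total of 15, quasi-likelihood test, Benjamini-Hochberg adjustment over all genes tested). Each sorted population was fitted alone, the 11 sorted WT libraries together and the 9 c-kit+ libraries together. Fold changes are log2. The fit was run on counts simulated from its own fitted spread, with no library standing apart, so that run cannot speak to such libraries. Alternatives were DESeq2 1.42.0, limma-voom 3.58.1 with weights per sample, RLE scaling, no filter, a replicate block, a term for sex (Xist over 100 CPM), other sets of samples and leaving out each library. Leaving out or summing pairs of libraries that stand apart or are closely alike was chosen after seeing the data. Levels per kb use the union of exons in GENCODE M21, which may differ from the authors' annotation. Positions and promoter windows are RefSeq's. Intervals cover the spread between libraries, and read depth ran from 3.44 to 47.7 M. Dnmt3a rested on the fewest reads in MEP Dnmt3a KO 2 to 4, at 144, 40 and 30. Of these libraries KO 2 was the shallow one, at 3.44 M reads, while KO 3 and 4 held 24.3 and 25.9 M.

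Named besides the 7 members are up to 3 called genes per direction and list with at least 5 CPM and groups that do not overlap, and the gene most like each member in mean log2 CPM (prior count 2) over the 10 groups. Other genes named were chosen after their values were seen or check a label. A gene that this rule also names is not reported here. The members and lists were chosen with earlier results of these data known.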

Additional observations from a re-analysis of the deposited data

Results flagged for a closer look

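In groups of 4 to 10 libraries, 35 combinations of gene and group were examined for a library far from the others, and 2 stood out, where chance flags about 1 in 20. Tet2 in MEP Dnmt3a KO 2 was at 51.3 CPM, against 8.05 to 10.2 CPM in the other 3 libraries of the group. This library had 3.44 M reads and 1967 CPM of Mpo, and the part of either in the value was not tested. Tet3 in MEP Dnmt3a KO 1 was at 24.3 CPM, against 154 to 166 CPM in the other 3.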

How the results depend on the processing

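Of 77 log2 fold changes of members followed over the alternatives, 53 kept their sign throughout. Among 1260 recomputed values 1154 kept the direction and the side of the threshold, 26 passed it newly, 16 lost it and 64 changed sign. None of the 6 called values changed sign. The cause was not tested.

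Members called went from 0 to 2 with DESeq2 and 1 with limma-voom in CMP/GMP Dnmt3a KO, and from 0 to 4 with limma-voom in MEP Dnmt3a KO and for the difference between populations. They went from 1 to 0 with a term for sex and to 2 with only both groups in c-kit+ Dnmt3a KO, and from 0 to 1 with DESeq2 or without the filter in DKO against Sting KO. For WT LT-HSC they went from 2 to 4 with DESeq2 against CMP/GMP and from 3 to 1 in 1 fit over the sorted populations against MEP, and for WT CMP/GMP against MEP from 0 to 3 with limma-voom. Leaving out 1 library gave 0 to 2 calls in MEP Dnmt3a KO, 1 to 3 in WT LT-HSC against CMP/GMP, 0 to 4 against MEP, and 0 to 1 in c-kit+ Dnmt3a KO, DKO against Sting KO and the difference between populations. The calls over all genes moved too, and several are given above. In c-kit+ Dnmt3a KO they were 0 of 16026 genes with a term for sex and 1260 of 15088 with only both groups. In DKO against Sting KO they were 126 of 13225 with DESeq2 and 408 of 23582 without the filter. For WT LT-HSC they were 2518 of 14247 with DESeq2 against CMP/GMP and 967 of 16136 in 1 fit against MEP. On leaving out 1 library they ran from 513 of 14364 (CMP/GMP WT 2 left out) to 2121 of 14510 (LT-HSC WT 1 left out) against CMP/GMP. Against MEP they ran from 891 of 15661 (MEP WT 3 left out) to 2765 of 14510 (LT-HSC WT 1 left out).

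Signs changed on leaving out 1 library in the following values, all of them not called. In LT-HSC Dnmt3a KO against WT the value ran from -0.10 to 0.20 for Dnmt1, from -0.22 to 0.73 for Dnmt3b, from -0.30 to 0.40 for Tet2, from -0.090 to 0.28 for Tet3. In CMP/GMP Dnmt3a KO against WT the value ran from -0.10 to 0.26 for Tet2. In MEP Dnmt3a KO against WT the value ran from -0.18 to 0.38 for Dnmt1, from -0.37 to 0.019 for Uhrf1, from -0.58 to 1.005 for Tet2. In c-kit+ Dnmt3a KO against WT the value ran from -0.074 to 0.10 for Tet1, from -0.027 to 0.084 for Tet3. In c-kit+ Sting KO against WT the value ran from -0.11 to 0.22 for Dnmt3a, from -0.028 to 0.15 for Tet1. In c-kit+ DKO against Sting KO the value ran from -0.31 to 0.017 for Dnmt3b, from -0.079 to 0.042 for Tet1. In c-kit+ DKO against Dnmt3a KO the value ran from -0.060 to 0.075 for Dnmt3a, from -0.067 to 0.040 for Dnmt3b, from -0.034 to 0.087 for Tet1. In the c-kit+ interaction the value ran from -0.23 to 0.092 for Dnmt3a, from -0.13 to 0.042 for Tet1. In WT LT-HSC against CMP/GMP the value ran from -0.26 to 0.43 for Tet2, from -0.12 to 0.19 for Tet3. In WT LT-HSC against MEP the value ran from -0.36 to 0.43 for Tet3. In WT CMP/GMP against MEP the value ran from -0.42 to 0.37 for Tet3.

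Signs also changed in these values, none of them called in edgeR. With limma-voom the value was 0.46 for Tet2 in LT-HSC Dnmt3a KO against WT, -0.15 for Tet3 in LT-HSC Dnmt3a KO against WT, 0.12 for Uhrf1 in MEP Dnmt3a KO against WT, -0.30 for Tet2 in MEP Dnmt3a KO against WT, -0.0034 for Tet1 in c-kit+ DKO against Dnmt3a KO and 0.073 for Tet3 in WT LT-HSC against WT MEP. With the replicate block the value was 0.028 for Tet2 in LT-HSC Dnmt3a KO against WT, -0.49 for Tet2 in MEP Dnmt3a KO against WT, -0.016 for Tet1 in c-kit+ DKO against Dnmt3a KO, 0.10 for Tet3 in WT LT-HSC against WT MEP and 0.014 for Tet3 in WT CMP/GMP against WT MEP. Without LT-HSC WT 1 and LT-HSC Dnmt3a KO 2 together the value was 0.58 for Tet2 in LT-HSC Dnmt3a KO against WT and -0.18 for Tet3 in LT-HSC Dnmt3a KO against WT. Without MEP Dnmt3a KO 3 and KO 4 together the value was -0.34 for Dnmt1 in MEP Dnmt3a KO against WT. With MEP Dnmt3a KO 3 and KO 4 summed the value was -0.014 for Dnmt1 in MEP Dnmt3a KO against WT. With a term for sex the value was 0.041 for Tet1 in c-kit+ DKO against Sting KO, -0.14 for Tet1 in c-kit+ DKO against Dnmt3a KO and -0.011 for Tet2 in c-kit+ DKO against Dnmt3a KO. With DESeq2 the value was 0.0032 for Tet3 in WT LT-HSC against WT MEP. With RLE scaling the value was 0.0031 for Tet3 in WT LT-HSC against WT MEP. Per summed CPM of the S phase list, the log2 ratio of mean levels in WT LT-HSC turned to 0.32 for Dnmt1 against CMP/GMP, 0.71 for Dnmt1 and 0.34 for Uhrf1 against MEP.

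The labels do not say what a replicate number marks, and same-numbered libraries did not deviate together in every pair, so the numbers were not taken to pair them. As a hint from the data, Xist called the same sex in 4 of 4 same-numbered pairs of LT-HSC WT and KO, 3 of 4 in CMP/GMP and 3 of 3 in MEP, and each library correlated best with its own number in 3 of 3 pairs of LT-HSC and MEP WT but in 0 of 4 of LT-HSC WT and KO. With the replicate block 1 member was called in c-kit+ Dnmt3a KO, 2 in WT LT-HSC against CMP/GMP and 3 against MEP, where Uhrf1 took the place of Dnmt3b, and none elsewhere. Over all genes 181 of 16026, 1202 of 14663 and 1877 of 14663 were called in these comparisons, in that order. The low Dnmt3a values in MEP Dnmt3a KO 3 and 4 rest on 40 and 30 reads, in libraries of 24.3 and 25.9 M reads. Their 95% intervals from read counting alone were 1.40 to 2.60 and 1.01 to 2.06 CPM, below the lowest MEP WT library at 29.1 CPM.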
